A study of Mus musculus with 6 samples.

Results

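Basp1, Marcks, Marcksl1 and Gap43 encode small proteins that hold the inner face of the plasma membrane, bind the membrane lipid phosphatidylinositol 4,5-bisphosphate (PIP2) and regulate the actin cytoskeleton. They were followed as 4 of the 23282 rows of a table of read counts from mouse alveolar macrophages, the phagocytes that live in the air spaces of the lung. The 4 genes were chosen by name with their counts in this comparison already known, Basp1 for its difference between genotypes and the others as its relatives. Their differences between genotypes are therefore given as descriptions, without p-values. Macrophages had been sorted from lung by flow cytometry as cells positive for CD45, CD11c, F4/80 and SiglecF and negative for CD11b. There were 3 libraries from wildtype mice and 3 from mice with floxed Sdha alleles and LysM-Cre (Sdha-KO), in which Cre recombinase is expressed from the Lyz2 locus in myeloid cells generally and not in alveolar macrophages alone. The flavoprotein subunit of succinate dehydrogenase is the product of Sdha. The sources used here give no age, and do not say whether the wildtype mice carried floxed alleles or Cre or whether a library came from 1 mouse or a pool, so the spread between libraries may be partly technical. Each genotype has 1 library per batch, and the batch number equals the replicate number.

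The proteins of this group carry a fatty acid and a cluster of basic residues, and both tether them to the membrane. There they cover PIP2 laterally and release it when the basic cluster is phosphorylated by protein kinase C or bound by calmodulin, and free PIP2 then acts on actin-binding proteins and on the enzymes that consume it. MARCKS and MARCKS-like 1 are widely expressed, and the latter was also named MacMARCKS for its abundance in macrophages. BASP1 and GAP-43 are best known from growing axons, and BASP1 also acts in the nucleus as a corepressor of WT1. Myristoylation takes place on a glycine that follows the start methionine, for which the codons begin with GG, whereas GAP-43 is palmitoylated on cysteines near its start, for which the codons are TGC and TGT.

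The first coding bases are shown because they hold these lipid attachment codons. Each run is 30 bases, 5′ to 3′ on the coding strand, from GENCODE M21 transcripts on mm10. Capitals mark the start codon and the GG codon after it, or, in Gap43, the start codon and the TGC and TGT codons.
Basp1: ATGGGAggcaagctgagcaagaagaagaag
Marcks: ATGGGTgcccagttctccaagaccgcagcg
Marcksl1: ATGGGCagccagagctctaaggctccccgg
Gap43: ATGctgTGCTGTatgagaagaaccaaacag
The stretches lie at chr15:25364880-25364909 for Basp1, chr10:37138506-37138535 for Marcks and chr16:42340473-42340502 for Gap43, all on the minus strand, and at chr4:129513830-129513859 for Marcksl1 on the plus strand. In 3 of the 4 genes the codon after the start begins with GG, and in Gap43 it does not.

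All 4 are protein-coding genes. Basp1 spans chr15:25363277-25413764 and its whole coding sequence of 681 bases lies in 1 of its 2 exons. Marcks spans chr10:37133375-37138920 with 930 coding bases, Marcksl1 spans chr4:129513581-129515985 with 603, and Gap43 spans chr16:42248442-42340651 with 684. No exon of the 4 main transcripts overlaps an exon of another annotated gene on either strand. To see whether reads could be shared, every run of 50 bases of each main transcript was looked for in the transcripts of all other genes. No such run was shared between any pair of the 4 genes, and Basp1 and Gap43 shared none with any gene. Marcks shared 7 of 3999 runs with other genes. Marcksl1 shared 25 of 1556, among them with its pseudogene Marcksl1-ps4. RefSeq lists 5 Marcksl1 pseudogenes, so its count is less certain than the others. The row of Marcksl1-ps4 was at 0 in every library.

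Total counts ranged from 5400160 to 8472907 per library, and 9963 genes passed a filter on low counts (edgeR's filterByExpr with a minimum count of 10). The pair of batch 1 libraries stood apart, with 7893 (wildtype) and 5438 (Sdha-KO) genes detected, whereas the other 4 had 11383 to 13050. Among 3447 genes that reached 100 counts in all of the other 4, the wildtype library of batch 1 lacked 136 (3.95%) and the Sdha-KO library of batch 1 lacked 612 (17.8%). Reads of the targeted gene Sdha numbered 457, 295 and 567 in the wildtype and 313, 113 and 153 in the Sdha-KO libraries, each in the order of replicates 1, 2 and 3. As CPM, the count scaled to library size with TMM composition factors, this was 56.0, 65.5 and 72.2 against 26.1, 21.0 and 22.8. Every Sdha-KO library lay below every wildtype library. The reads come from 3′ ends, which may lie outside the deleted part of Sdha, so this is a limited check of the labels.

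Basp1 RNA was higher in every Sdha-KO library than in any wildtype library. In the order of replicates 1, 2 and 3, used for every list of values here, the wildtype libraries held 428, 151 and 403 Basp1 reads and the Sdha-KO libraries 3858, 2210 and 2999. In CPM these were 52.4, 33.5 and 51.3 in wildtype and 322, 411 and 447 in Sdha-KO. The lowest Sdha-KO library lay well above the highest wildtype library, and the genotypes did not overlap. Among the 9963 genes kept by the filter, Basp1 ranked 2390 by mean CPM in wildtype against 192 in Sdha-KO libraries. The fitted log2 difference was 3.10 (SE 0.393), or 8.59-fold. Over the 16 other settings tried it lay between 2.91 and 3.37.

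Marcks, the founding member of its family, was unevenly represented. The wildtype libraries held 91, 135 and 124 Marcks reads and the Sdha-KO libraries 0, 314 and 868, which is 11.2, 29.96 and 15.8 against 0, 58.4 and 129 CPM. Sdha-KO replicates 2 and 3 were above every wildtype library, while Sdha-KO replicate 1 was below all of them, so the genotypes overlapped. A count of 0 in that library allows up to 0.25 CPM, for counting error only. Marcks is 1 of the 612 abundant genes with no count there. The fitted log2 difference was 1.72 with an SE of 1.68, about as large as the difference itself. It was 2.05 (SE 0.514) without both batch 1 libraries, 0.62 (SE 2.29) without Sdha-KO replicate 3, 0.25 (SE 3.03) with the replicate number as a block and -2.72 (SE 2.39) with limma-voom, so its size differed widely between settings and its sign turned in 1.

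Marcksl1 was scarce. The wildtype libraries held 0, 13 and 47 Marcksl1 reads and the Sdha-KO libraries 0, 44 and 240, or 0, 2.88 and 5.98 against 0, 8.18 and 35.8 CPM. Both batch 1 libraries were at 0, and the other Sdha-KO libraries were above the wildtype ones. The fitted log2 difference was 2.30 (SE 2.61), 2.31 (SE 0.918) without both batch 1 libraries and 0.46 (SE 3.18) without Sdha-KO replicate 3. The difference is smaller than its error with all 6 libraries, and 1 library held most of the Marcksl1 counts.

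Gap43, a marker of growing and regenerating axons, was close to undetected. It had 10 counts in Sdha-KO replicate 2, which is 1.86 CPM with an exact Poisson 95% interval of 0.892 to 3.42, and no count in any other library. A count of 0 in the others allows up to 0.25 to 0.666 CPM, for counting error only. It did not pass the filter on low counts and has no fitted difference.

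**Figure D1:**
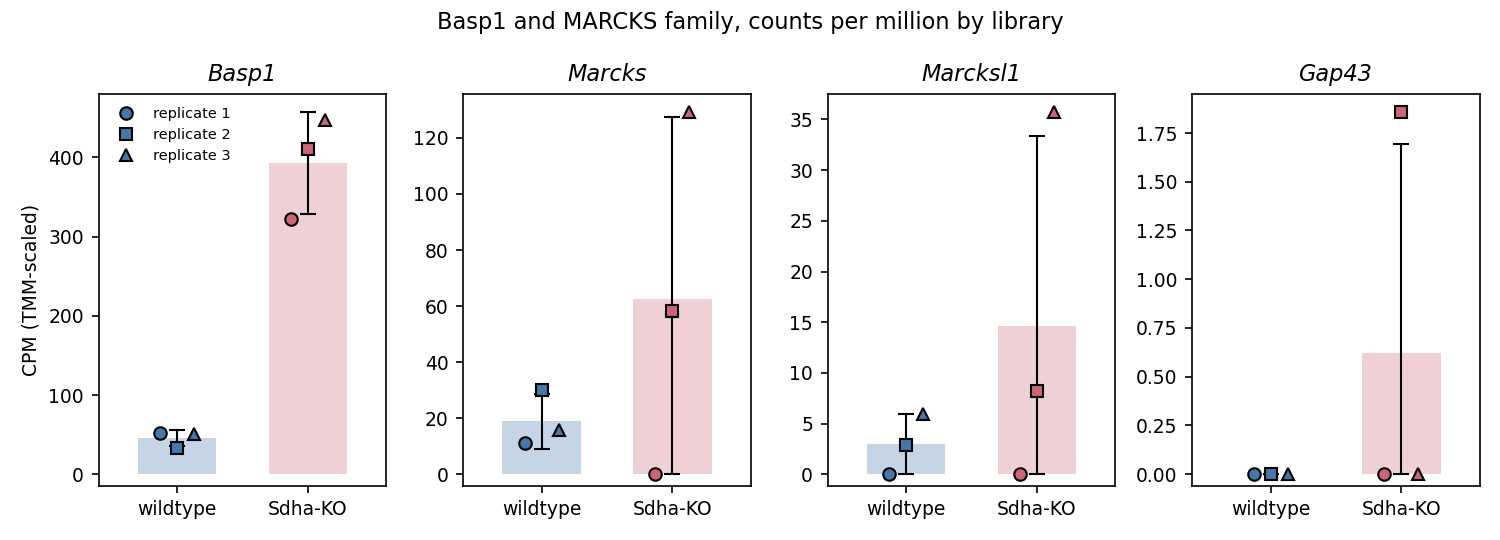
TMM-scaled CPM of Basp1, Marcks, Marcksl1 and Gap43 (vertical axes, 1 scale per gene) in wildtype and Sdha-KO libraries. Bars are means, error bars 1 SD over 3 libraries and drawn no lower than 0, and symbols are libraries by replicate number. Basp1 separates the genotypes, with 33.5 to 52.4 against 322 to 447 CPM, while the Sdha-KO libraries of Marcks run from 0 to 129 CPM.

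In the fit over all genes (edgeR quasi-likelihood test, Benjamini-Hochberg adjusted p under 0.05), 1 of the 3 members tested passed, Basp1, beside 5 of 9963 genes in all (0.0502%). Since Basp1 was chosen from this comparison, nothing is read from that count. With the replicate number as a block, 0 genes passed, Basp1 included. No gene passed with a filter of 10 counts in all 3 libraries of a genotype or without wildtype replicate 1, and 2 genes, without Basp1, passed when Sdha-KO replicate 3 was left out. Groups did not overlap, with Sdha-KO above, for 1 of the 3 members and for 5.04% of all tested genes.

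The 2 libraries with the same replicate number were also set against each other. For Basp1 the ratio of Sdha-KO to wildtype CPM was 6.14 in number 1, 12.3 in number 2 and 8.71 in number 3. The exact binomial 95% intervals were 5.55 to 6.80, 10.4 to 14.6 and 7.85 to 9.69, and all 3 ratios were far above 1. The ratios differed by more than the counting error of independent reads. These intervals and the floors cover that error only. Reads without molecular identifiers are not independent molecules, so the true counting error may be larger.

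Marcks was 44.5-fold lower in the Sdha-KO library of number 1, taking the floor of 3 counts for the library at 0. That value leaves out the counting error of the 91 wildtype reads. Marcks was 1.95 times higher (interval 1.59 to 2.40) in number 2 and 8.19 times higher (6.78 to 9.97) in number 3. Thus 1 pair went against the other 2. Marcksl1 was 2.84 times higher (1.5 to 5.74) in number 2 and 5.98 times higher (4.36 to 8.36) in number 3, and could not be compared in number 1. For Gap43 the Sdha-KO library was 2.79-fold higher in number 2 against the same floor, with the counting error of its 10 reads left out. In numbers 2 and 3 the Sdha-KO library was thus the higher one for Basp1, Marcks and Marcksl1, and in number 1 for Basp1 alone. Xist, which is transcribed from the inactive X chromosome, had 0, 4608 and 6055 counts in the wildtype libraries of numbers 1, 2 and 3, and 2683, 498 and 822 in the Sdha-KO libraries. The Y-linked gene Ddx3y had 222, 0 and 143 counts against 0, 354 and 432. Sex was therefore not balanced between genotypes in any of the 3 batches, batch 1 leaned the opposite way to the other 2, and 3 libraries held both transcripts. The part of sex in the members' differences was not tested.

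**Figure D2:**
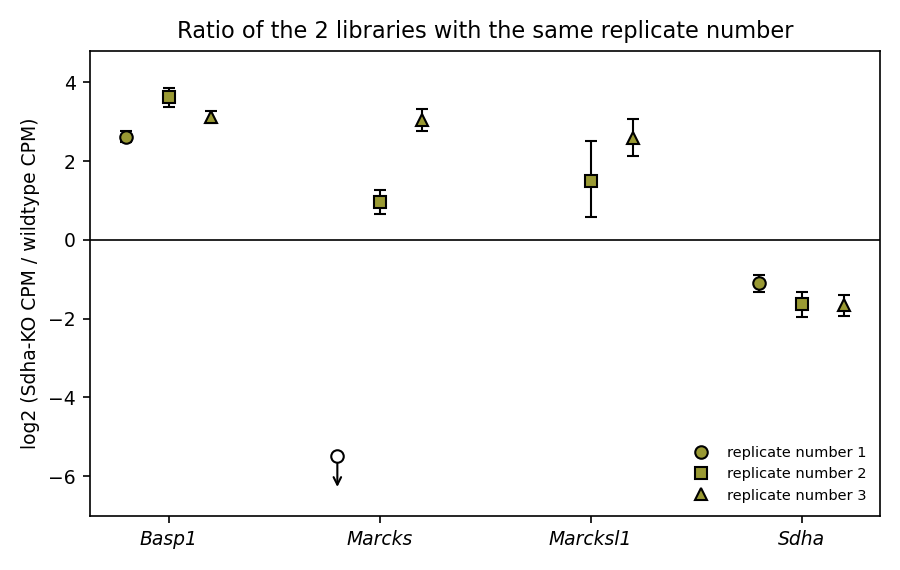
Log2 ratio of Sdha-KO to wildtype CPM (vertical axis) for each replicate number, for Basp1, Marcks, Marcksl1 and the targeted gene Sdha. Error bars are exact binomial 95% intervals for counting error. The open circle with an arrow is Marcks in number 1, where the Sdha-KO library had no count and the floor of 3 counts was used. Basp1 lies above 0 and Sdha below 0 in all 3 numbers.

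Reads from a 3′ kit count transcript ends whatever the transcript length, so levels of the members can be set side by side. In wildtype macrophages Basp1 was the most abundant at 45.8 ± 10.6 CPM, followed by Marcks at 19.0 ± 9.80 and Marcksl1 at 2.96 ± 2.99 (SD, n = 3). Basp1 and Marcks did not overlap in wildtype, with 33.5 as the lowest Basp1 and 29.96 as the highest Marcks value, a narrow gap. Marcks and Marcksl1 did not overlap either, at 11.2 and 5.98 CPM. In Sdha-KO macrophages Basp1 was at 393 ± 64.4, Marcks at 62.6 ± 64.8 and Marcksl1 at 14.7 ± 18.7 CPM (SD, n = 3), and Marcks and Marcksl1 overlapped. Basp1 was above Marcks in 3 of 3 libraries of each genotype. The summed CPM of all 4 genes was 63.6, 66.4 and 73.1 in wildtype against 322, 479 and 612 in Sdha-KO libraries. Basp1 made up 82.5%, 50.5% and 70.2% of that sum in wildtype and 100%, 85.7% and 73.0% in Sdha-KO libraries. The 100% is from Sdha-KO replicate 1, the library with the fewest genes detected (5438), where the other members had no count. Means and shares that include this library carry that limit.

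The 250 bases before the Basp1 start site (RefSeq, GRCm38.p6, chr15:25413765-25414014, minus strand) are shown because Basp1 is the member that separates the genotypes in every library. Capitals mark GC boxes (GGGCGG on either strand), the motif bound by SP1-type factors.
Basp1 upstream: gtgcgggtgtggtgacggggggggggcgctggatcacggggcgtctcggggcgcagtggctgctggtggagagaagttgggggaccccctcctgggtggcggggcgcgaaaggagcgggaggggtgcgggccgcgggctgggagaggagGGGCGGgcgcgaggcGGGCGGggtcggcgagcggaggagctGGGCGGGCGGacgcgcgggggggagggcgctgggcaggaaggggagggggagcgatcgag
The window holds 4 GC boxes, of which the last pair overlap, and 32.7% of 32851 RefSeq windows of this length hold at least 1. Its GC content was 78.8%, above that of 98.3% of the windows, and it held 30 CpG dinucleotides. The share of windows with as many GC boxes was not counted, nor the share among windows of like GC content. Marcksl1, the other member with a window in the table, had a GC content of 60.4%, 12 CpG dinucleotides and no GC box. Neither window matched ACGTG (the core of the hypoxia response element, 16.6% of windows), CACGTG (the E-box, which contains that core, 6.02%), TGANTCA (AP-1, 6.75%) or TGATGNAA (an ATF4 composite site, 3.45%), each searched on both strands. A missing match says only that these letters are not in the window.

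The genes closest to each member across the 6 libraries were found by centring log2 CPM (prior count 2) on each gene's own mean and taking the root mean square difference, among genes with a mean of at least 10 CPM. For Basp1 these were S100a6, a calcium-binding protein (0.35), Hilpda, a lipid droplet protein (0.43), Cav1, the scaffold of caveolae (0.43), Mt2, a metallothionein (0.48), and Mthfd2, a mitochondrial folate enzyme (0.50), against a median of 2.20 over 6358 genes. S100a6 was at 33.7, 14.6 and 29.3 CPM in wildtype against 123, 149 and 148 in Sdha-KO libraries. Cav1 was at 15.2, 10.2 and 13.5 against 67.9, 102 and 56.3 CPM. In both genes every Sdha-KO library lay above every wildtype library, as in Basp1. Both were chosen for likeness to Basp1 in these same libraries, so nothing is read from that separation. Exons of Mt2 overlap those of Gm45774, so its count is uncertain.

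The genes closest to Marcks were Faf2, Irak2, Tcf4, Eps8 and Sumf1, at 0.59 to 0.69. Of these, Faf2, Tcf4, Eps8 and Sumf1 had no count in Sdha-KO replicate 1, as Marcks had none, and Irak2 had 0.0834 CPM there. Eps8, which caps and bundles actin filaments, was at 14.5, 33.5 and 35.6 CPM in wildtype against 0, 86.3 and 63.9 CPM in Sdha-KO libraries. Among the genes closest to Marcksl1 were Commd10, Smurf1, Il7r and Faf1, at 0.49 to 0.56. In batch 1, these 4 had no count in the wildtype library, and in the Sdha-KO library Il7r had 0.0834 CPM and the others none. For both members the likeness thus includes the batch 1 libraries in which counts were missing.

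**Figure D3:**
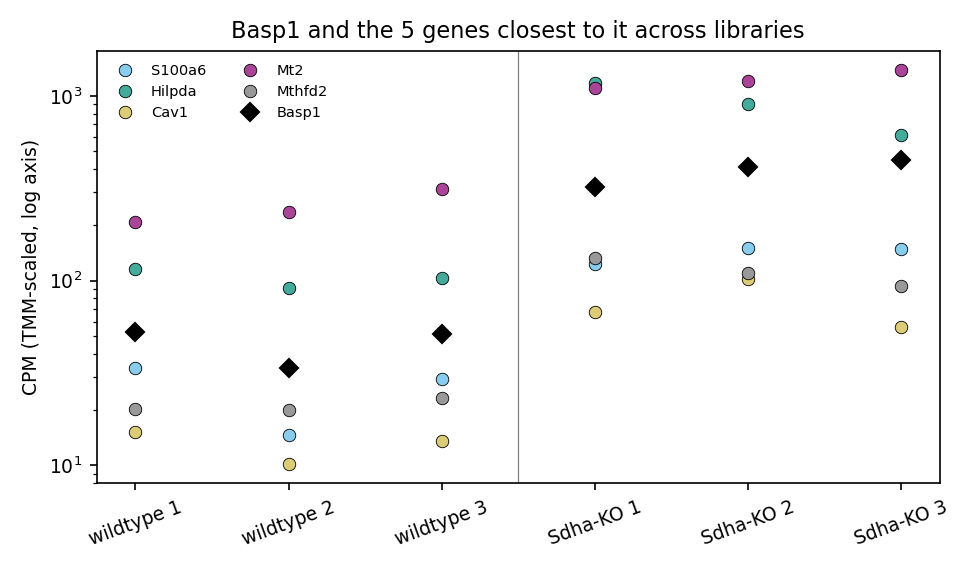
TMM-scaled CPM (vertical log axis) of Basp1 and the 5 genes closest to it by centred log2 CPM, in each of the 6 libraries (horizontal axis). Basp1 is at 33.5 to 52.4 CPM in wildtype and 322 to 447 CPM in Sdha-KO. The other genes, chosen for their likeness to it, are also higher in all 3 Sdha-KO libraries.

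Genes that act with these proteins were examined as 7 lists chosen by function. Of 128 genes, 107 were tested. None passed over all genes (edgeR, 0 higher and 0 lower), 6 of 107 had an unadjusted p under 0.05 (263 of 9963 over all genes), and DESeq2 called 0 and limma-voom 1. The median log2 difference of the 107 was -0.01 against -0.13 over all 9963 tested genes, and 53 were positive and 54 negative. Groups did not overlap in 8 with Sdha-KO above (7.48%, against 5.04% of all tested genes) and in 11 with Sdha-KO below (10.3%, against 9.27%).

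Protein kinase C phosphorylates the basic cluster of MARCKS. Genes of the protein kinase C and D families were positive in 4 of 9 tested members, with a median log2 difference of -0.32 and none past the threshold. Prkcd was at 17.6, 70.6 and 62.8 CPM in wildtype against 31.5, 115 and 93.5 CPM in Sdha-KO, and the groups overlapped. Prkcb, a conventional calcium-dependent isoform, was at 28.2, 12.6 and 20.2 against 73.5, 62.3 and 46.1 CPM without overlap (log2 difference 1.57, SE 0.908, edgeR adjusted p = 1.00). Prkch was at 0.123, 36.4 and 25.3 against 0, 4.28 and 17.1 CPM. Calmodulin genes and partners of calmodulin had a median of -0.04, with 4 of 10 positive. Calm2 was at 212 ± 25.1 and 222 ± 125 CPM and the scaffold gene Iqgap1 at 1287 ± 260 and 1142 ± 410 CPM (wildtype and then Sdha-KO, SD, n = 3), both with overlap. Exons of Iqgap1 overlap those of another annotated gene, so its count is uncertain.

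Enzymes that make or consume PIP2 had a median of 0.13, with 15 of 26 positive and none past the threshold. The phospholipase gene Plcb2 was at 553, 183 and 198 CPM in wildtype against 91.0, 159 and 92.4 CPM in Sdha-KO libraries, without overlap (log2 difference -1.44, SE 0.491, edgeR adjusted p = 1.00). The lipid kinase gene Pik3cd was at 96.1 ± 63.2 and 107 ± 66.7 CPM, and the phosphatase gene Synj1 at 87.4 ± 54.9 and 115 ± 54.8 CPM (SD, n = 3). Both overlapped between genotypes. Exons of Synj1 overlap those of another gene.

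PIP2-regulated actin-binding proteins had a median of -0.07, with 13 of 30 positive and none past the threshold. In 7 of the 30 (23.3%) every Sdha-KO library was below every wildtype library, against 9.27% of all tested genes, and in 1 every Sdha-KO library was above. The actin-severing gene Dstn was at 641 ± 192 and 591 ± 38.0 CPM with overlap. The filamin gene Flna, a filament crosslinker, was at 479, 486 and 475 CPM in wildtype against 250, 450 and 436 CPM in Sdha-KO, and the moesin gene Msn, a linker of actin to the membrane, was at 516, 464 and 553 against 588, 594 and 689 CPM. Flna lay lower and Msn higher in all Sdha-KO libraries by small amounts (log2 differences -0.34, SE 0.324, and 0.29, SE 0.278; edgeR adjusted p = 1.00 for each). An exon of Msn overlaps that of another gene.

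Actin and the Arp2/3 complex, which nucleates branched filaments, had a median of 0.04, with 6 of 11 positive and none past the threshold. Actb was at 20190, 12078 and 17628 CPM in wildtype against 15143, 14870 and 16425 CPM in Sdha-KO libraries, with overlap. Arpc1b was at 916 ± 270 and 1206 ± 809 CPM and Arpc2 at 920 ± 63.9 and 1004 ± 301 CPM (SD, n = 3), also with overlap. The cytoplasmic gamma-actin gene Actg1, named after its values were seen, had the smallest adjusted p of the 107 genes (edgeR, 0.474). It was at 315, 417 and 348 CPM in wildtype against 964, 844 and 737 CPM in Sdha-KO libraries, a log2 difference of 1.24 (SE 0.289) without overlap. Actg1 passed with limma-voom, with no count filter, and when both batch 1 libraries were left out and the replicate block added, and did not pass in the other settings. Its exons overlap those of other annotated genes, so its count is uncertain.

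Enzymes of N-myristoylation, palmitoylation and their removal had a median of 0.07, with 9 of 16 positive and none past the threshold. The N-myristoyltransferase gene Nmt1 was at 443, 145 and 207 CPM in wildtype against 562, 129 and 130 CPM in Sdha-KO libraries. The highest value of each genotype was thus in batch 1. Metap2, which removes the start methionine before myristoylation, was at 326 ± 175 and 203 ± 24.2 CPM, and the depalmitoylating enzyme gene Ppt1 at 285 ± 48.8 and 205 ± 49.5 CPM (SD, n = 3), both with overlap. Exons of Nmt1 and Ppt1 overlap those of other genes. Nuclear partners of BASP1 had a median of -0.51, with 2 of 5 tested members positive, and Wt1 did not pass the filter. Smarca4 was at 354 ± 218 and 181 ± 84.9 CPM, Phb2 at 70.0 ± 28.8 and 75.0 ± 14.0 CPM and Hdac1 at 21.98 ± 7.59 and 41.5 ± 27.5 CPM (SD, n = 3). The genotypes overlapped in all 3, and exons of Smarca4 and Phb2 overlap those of other genes.

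**Figure D4:**
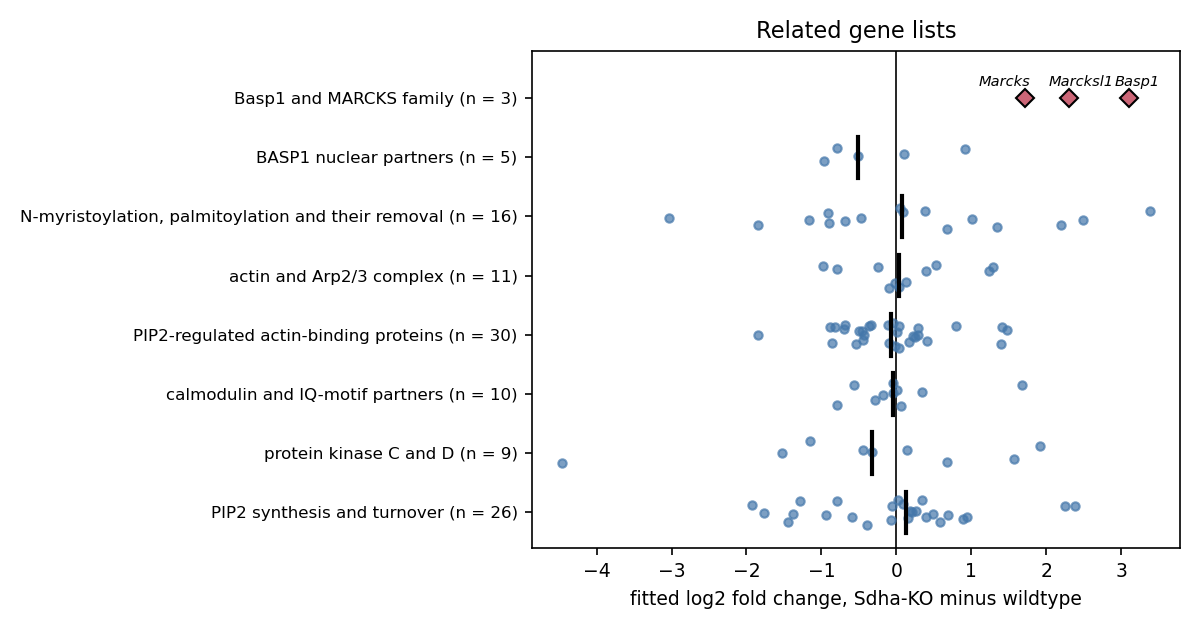
Fitted log2 difference, Sdha-KO minus wildtype (horizontal axis), of each tested gene in 7 lists of related genes, with the list median as a vertical bar and the number of tested genes in parentheses, beside the 3 tested members as diamonds. List medians lie between -0.51 and 0.13, and no gene of the 7 lists passed the threshold.

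Basp1, Marcks and Marcksl1 are also expressed by other cells that a sort can hold, so marker lists were summed in each library. In bulk RNA, fewer cells of a type and less RNA per cell cannot be told apart. Alveolar macrophage markers dominated, with summed CPM of 9624 to 11441 in wildtype and 8383 to 10707 in Sdha-KO libraries. All 16 were tested, 6 were positive, and Chil3 and Lpl were the highest. The eosinophil-associated ribonuclease gene Ear1 was the 1 marker called. It was at 585, 575 and 739 CPM in wildtype against 145, 139 and 112 CPM in Sdha-KO libraries (log2 difference -2.26, SE 0.321, edgeR adjusted p = 0.0261), and near-identical copies make its count uncertain. Siglecf, on which the cells were sorted, was at 103, 138 and 132 CPM in wildtype against 0, 39.6 and 45.3 CPM in Sdha-KO libraries.

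Markers of mature dendritic cells summed to 8.33, 7.99 and 39.5 CPM in wildtype against 53.4, 78.1 and 395 CPM in Sdha-KO libraries. The sums did not overlap, though each of the 6 markers alone overlapped between genotypes. Most of the sum in Sdha-KO replicate 1 was Cacnb3. It was at 0, 0 and 5.09 CPM in wildtype against 39.6, 2.79 and 24.0 CPM in Sdha-KO libraries. Of the 6 markers, 4 were tested, all 4 were positive, and none passed (Il4i1 was at 0 in every library). Ccl22 was at 8.33, 3.11 and 16.2 CPM in wildtype against 8.76, 47.2 and 169 CPM in Sdha-KO libraries, and Ccr7 at 0, 2.22 and 9.55 against 5.01, 27.5 and 96.7 CPM. Fscn1, named after its values were seen, was at 0, 0 and 6.11 against 0, 0.558 and 92.7 CPM. Sdha-KO replicate 3, with the highest Basp1, Marcks and Marcksl1 values, also held the highest sum of these markers. The part of these cells in the differences of the members was not tested.

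Conventional dendritic cell markers summed to 19.97, 18.6 and 30.3 CPM in wildtype against 0.167, 58.8 and 106 CPM in Sdha-KO libraries. Over the Sdha-KO libraries this is the same order as Basp1, Marcks and Marcksl1. The sums of mature dendritic cell, B cell, alveolar type 2 cell, fibroblast and erythroid markers rose in that order too. Cd209a was at 0, 0.444 and 4.84 against 0, 37.4 and 17.9 CPM and Batf3 at 1.23, 9.76 and 11.1 against 0, 0 and 26.1 CPM. Of the 8 markers, 5 were tested, with 4 positive and none called. Neutrophil markers, of a cell type rich in Basp1, summed to 92.3, 92.3 and 59.1 CPM in wildtype against 79.9, 228 and 211 CPM in Sdha-KO libraries, with overlap. All 4 tested markers of the 10 were positive and none was called. The untested marker Csf3r went the other way, at 0, 5.55 and 4.46 CPM in wildtype against 0.0834, 0 and 0 CPM in Sdha-KO libraries. Retnlg, Mmp9, Lcn2 and Camp, also untested, were each highest in Sdha-KO replicate 3. S100a8 was at 54.1 ± 32.8 and 67.1 ± 9.14 CPM (SD, n = 3), and Cxcr2 at 0.490, 11.5 and 0.891 against 4.76, 80.9 and 28.5 CPM. The part of dendritic cells and neutrophils in the Basp1 and Marcks differences was not tested.

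Neuronal markers summed to 0, 0.666 and 0.127 CPM in wildtype against 0, 21.2 and 3.28 CPM in Sdha-KO libraries, and none of the 8 passed the filter. Sdha-KO replicate 2, the only library with Gap43 counts, was also the one with 9.30 CPM of Tubb3 and 9.11 CPM of Stmn2, which encode a neuronal tubulin and stathmin-2. Elsewhere Stmn2 was at 0, and Tubb3 was at 0 apart from 0.127 CPM in wildtype replicate 3. Prph was at 0 in every library.

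Among the other lists, the summed CPM of T and NK cell markers was almost all Cd2, which was at 524, 258 and 368 CPM in wildtype against 197, 66.8 and 141 CPM in Sdha-KO libraries. The sum ran from 264 to 524 and from 81.5 to 197 CPM. Klrd1 did not share this order, at 0, 0 and 1.53 against 0, 9.11 and 5.22 CPM. Cd3e, Cd3d and Cd3g had no count in wildtype replicate 1, where Cd2 was highest, and were at 4.97 CPM or less elsewhere. Of the 7 markers, 3 were tested, 1 was positive and none was called. Monocyte and interstitial macrophage markers (led by Fn1 and Ccr2, 83.6 to 162 and 115 to 248 CPM), fibroblast markers (Col1a2 and Col3a1, 51.1 to 104 and 0 to 172 CPM), alveolar type 2 cell markers (Sftpc and Napsa, 60.8 to 228 and 27.9 to 368 CPM) and erythroid markers (Hba-a1 and Hbb-bs, 161 to 249 and 87.0 to 388 CPM) overlapped between genotypes. So did those of B cells (led by Cd79b, 0 to 29.3 and 0 to 31.4 CPM) and endothelial cells (Kdr and Cdh5, 11.8 to 36.8 and 0.558 to 13.7 CPM). The part of these cells in the members' values was not tested.

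**Figure D5:**
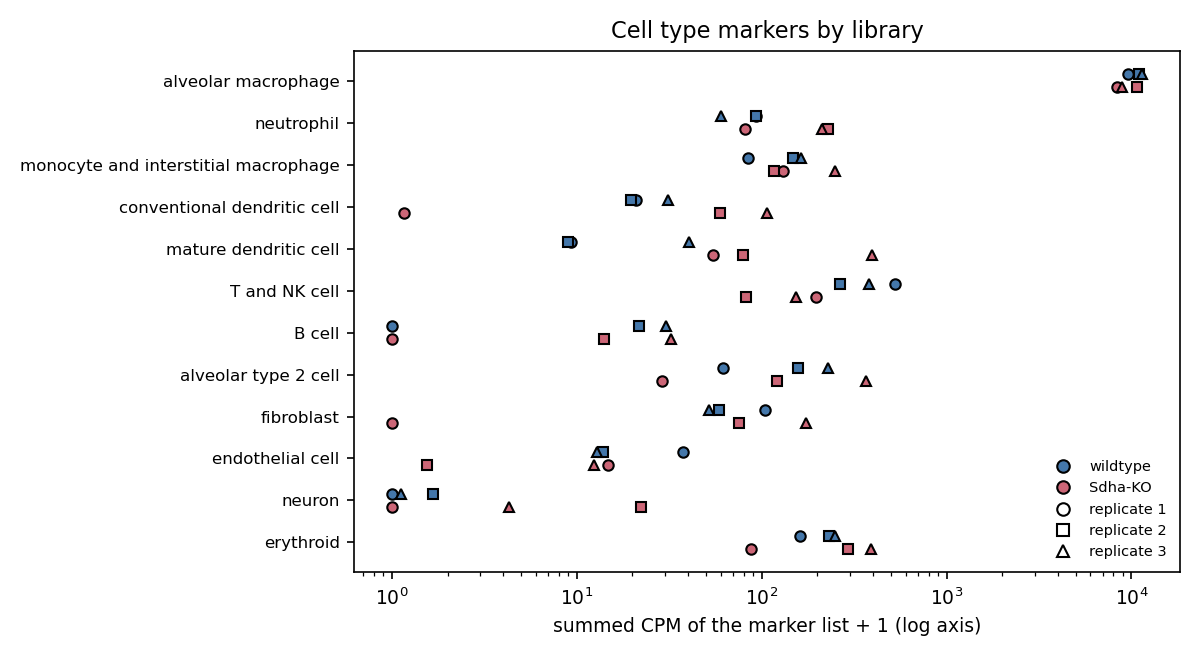
Summed CPM of each cell type marker list plus 1 (horizontal log axis) in wildtype and Sdha-KO libraries, with 1 symbol per library by replicate number. Alveolar macrophage markers lie at 8383 CPM or more in all 6 libraries, and mature dendritic cell markers reach 395 CPM in Sdha-KO replicate 3.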

How the data were processed

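Per the labels, TRIzol was used to extract RNA and a QuantSeq 3′ mRNA kit to make the libraries. The authors deposited 1 table of raw counts, with gene symbols as rows and libraries as columns. Per the submitters' processing notes, Bowtie2 and bedtools were used on mm10. Not given in the sources used here are versions, annotation, strand and the rule for reads with several matches.

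Genotypes were compared over the whole table with edgeR 4.0.16 (filterByExpr, TMM factors, robust quasi-likelihood F-test; R 4.3.3). Genotype was the only term, with Benjamini-Hochberg adjustment over 9963 genes. The SE is the log2 difference divided by the square root of F. The 44 rows that repeat a symbol were kept, and none is a member. Every pair of libraries differed beyond counting noise (the lowest chi-square divided by its degrees of freedom was 39.4). Alternatives included DESeq2 1.42.0, limma-voom (limma 3.58.1), other scaling and filters, a replicate block and leaving out libraries. In 1 more the rows Rn45s, Rn4.5s and Lars2 were left out. The labels make the replicate number a batch number, which pairs the samples, and libraries sharing a number deviated together from their genotype means (r across genes of 0.155, 0.117 and 0.126 for numbers 1 to 3). Libraries of different numbers ran from -0.152 to 0.111, the highest being wildtype 2 with Sdha-KO 3.

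Members, gene lists, markers and alternatives were chosen with earlier results of these data known. Named genes were the members, Sdha, the 3 most abundant tested genes of each related list, those past the threshold, the 5 genes closest to each tested member (predicted and antigen receptor genes left out) and the 2 most abundant markers per cell type. Actg1, Ear1, Fscn1, Ddx3y, Xist, Siglecf, Il4i1, Prph and the genes named in the closing section were named after their values were seen. So were Cacnb3, Csf3r, Retnlg, Mmp9, Lcn2, Camp, Cd3e, Cd3d, Cd3g and Rn45s. A few genes that this rule takes are not reported here.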

Additional observations from a re-analysis of the deposited data

How the results depend on the processing

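The Basp1 log2 difference stayed within 1 SD of its libraries (0.309) in all 16 other settings, from 2.91 to 3.23 when 1 library was left out and 3.12 with the replicate block. The Marcks difference was positive in 15 of 16 settings, 0.62 to 2.31 with 1 library left out, 0.25 with the block and -2.72 with limma-voom, and the cause was not tested. That of Marcksl1 was positive in all 15 settings that tested it, 0.46 to 3.34 with 1 library left out and 1.83 with the block. The number of genes called was 5 in the main setting and 5 without the rows Rn45s, Rn4.5s and Lars2. It was 0 with the replicate block (296 at an unadjusted p under 0.05), 9 with library totals alone, 48 with no filter, 0 with 10 counts in all libraries of a genotype (255 at an unadjusted p under 0.05), 21 with DESeq2 and 20 with limma-voom. Leaving out both batch 1 libraries gave 27, and adding the replicate block to that gave 324, with 1 residual degree of freedom left. With 1 library left out it ran from 0 to 13: 0 without wildtype replicate 1, 12 and 13 without wildtype replicates 2 and 3, and 3, 7 and 2 without Sdha-KO replicates 1 to 3. Scaling by library totals moved the median log2 difference of all genes from -0.13 to 0.05, and all 9 calls were then higher. The related genes called were 0 with 1 library left out and in the main setting, 1 with no filter, 1 with limma-voom and 5 without both batch 1 libraries with the replicate block (Actg1, Evl, Gsn, Lypla2 and Ppt1). Of 112 list medians under other settings, 78 moved by less than 1 SD over the replicate numbers and 34 by more.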
